A study of Mus musculus with 4 samples.

Results

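Genes for 10 transcription factors that define the pancreatic beta cell were followed through an m6A study of MIN6 cells, which come from a mouse insulinoma and serve as a beta-cell model. The factors, chosen by name, were Pdx1, Mafa, Nkx2-2, Nkx6-1, Pax6, Neurod1, Isl1, Foxa2, Mnx1 and Glis3, 10 of the 21900 protein-coding genes of the reference. In 1 arm the cells had received a GR expression vector, read here as one for the glucocorticoid receptor, and in the other a control vector, with 10 µg of plasmid per dish. RNA was taken 24 hours later, and each arm gave 1 library from immunoprecipitation with an anti-m6A antibody and 1 input library, 4 in all. The line carries the C57BL/6 background label, and both arms went through the same lipid transfection. No value below has a replicate check, and no test between arms was possible.

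The factors work as a network. Pdx1, Mafa and Neurod1 bind and activate the insulin gene promoter, Foxa2 opens chromatin and helps switch on Pdx1, and Nkx2-2, Nkx6-1, Pax6, Isl1 and Mnx1 are homeodomain proteins that fix the endocrine and then the beta-cell fate. Glis3 is a zinc finger factor of the insulin gene whose human counterpart is mutated in a form of neonatal diabetes. m6A is a methyl mark on adenosines of mRNA, often near the stop codon, and proteins that read it change how long an mRNA lasts and how well it is translated.

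What the deposited files hold for these genes is a listing. A table of genes related to peaks that differed between the GR and control arms gives an Ensembl ID, a symbol and the names of protein domains on each of its 17052 lines. It gives no peak position, size or direction, and the sources do not say what 1 line represents. Library depth and RNA level are not given either, so a change in m6A per RNA and a change in RNA level cannot be told apart, and the labelled cell type could not be checked. The listing is no measure of expression. Of 8 beta-cell markers, it holds Pdx1, Mafa and Nkx6-1, which are factors followed here, and Ins1, Slc2a2 and G6pc2, but not Ins2 and Ucn3. Listing and peaks did not always go together. Of 22 autophagy genes for which the authors deposited differential peaks, 9 were in the gene table and 13 were not. None of the 10 factors stands in that autophagy table.

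The gene table listed 8 of the 10 factor genes, or 80%, against 25.6% of all protein-coding genes. That 25.6% counts genes whether or not MIN6 cells express them. A share limited to expressed genes could not be formed, as RNA level is not given. For the 80%, the exact Clopper-Pearson range (95%) is 44.4% to 97.5%. The 10 genes were chosen by name and are no random draw, so this range is no test against 25.6%. Among genes of the GO row for DNA-binding transcription factor activity, 331 of 1024 had a peak in the authors' deposited table, or 32.3%. Neurod1, a basic helix-loop-helix activator, and Glis3 were absent by ID and by symbol. The other 8 had 21 lines in all.

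Mafa, the basic leucine zipper activator of mature beta cells, had 4 lines, and so did Nkx2-2, which holds beta cells apart from other islet fates. Nkx6-1, a repressor of non-beta genes, and Pax6, a regulator of islet hormone genes, had 3 lines each. Pdx1, the factor that the pancreas itself depends on, Foxa2 and Mnx1 had 2 lines each. Isl1, a LIM-homeodomain partner of several of these factors, had 1 line. With counts of 1 to 4 and no replicate, this order has no measured error.

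**Figure D1:**
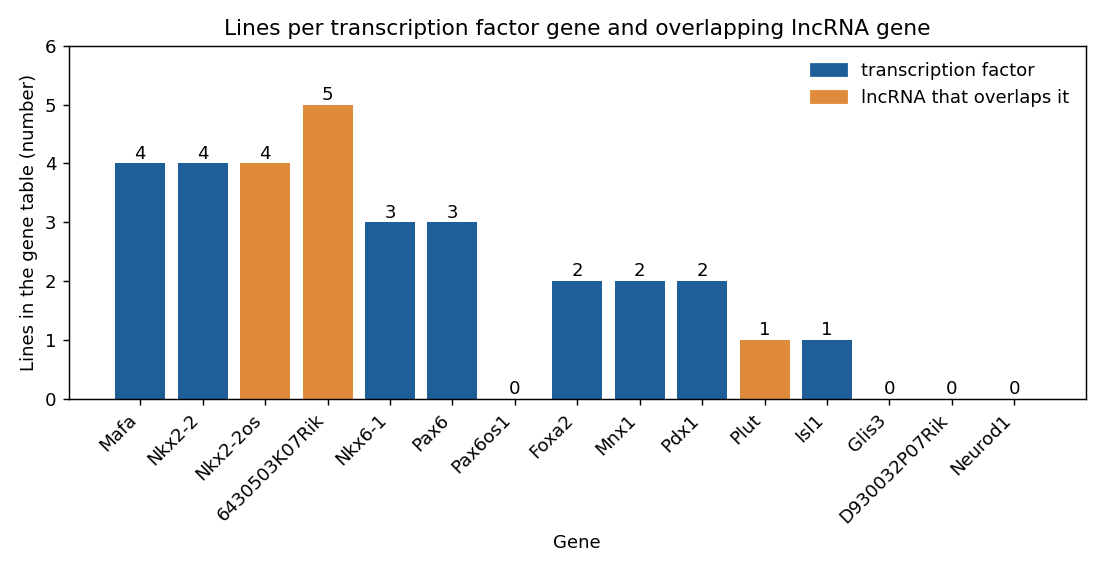
Bars give the number of lines (vertical axis) of each of the 10 factor genes (blue) and of each lncRNA gene with a matched Ensembl ID that overlaps one of them (orange, drawn right after the factor it overlaps). Mafa and Nkx2-2 reach 4 lines, Neurod1 and Glis3 stand at 0, and the lncRNA gene 6430503K07Rik inside Nkx2-2 reaches 5.

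Repeated lines were more frequent among the factors than among listed genes in general. At least 2 lines were present for 7 of the 10 factors, against 11.4% of all protein-coding genes. Counting listed genes only, 87.5% of the 8 factors had at least 2 lines, against 44.5% of 5609 protein-coding genes. At least 3 lines were found for 50% of the listed factors and for 19.3% of listed protein-coding genes. The median was 2.5 lines in the factors and 1 in listed protein-coding genes. Among the gene lists described below, it was 3 in listed direct targets of the factors. It was 2.5 in listed orthologs of human genes for maturity onset diabetes of the young, Pdx1 among them. The number of lines was thus not particular to the factors. The median was 1.5 in other listed islet and progenitor factors and 1 in listed paralogs and in listed cofactors. No factor had 5 lines or more, while 4.08% of listed protein-coding genes did. These are descriptions, since the factors were chosen with earlier results of these data known.

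**Figure D2:**
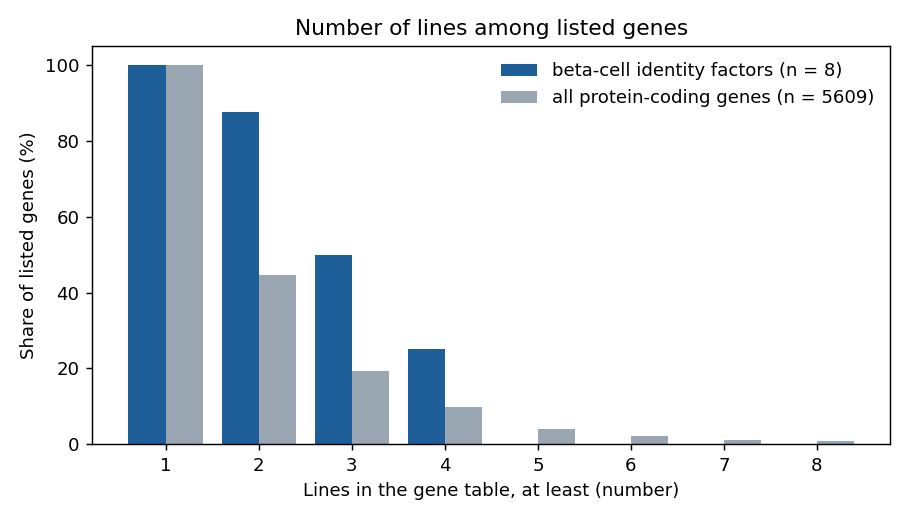
The share of listed genes (vertical axis, percent) with at least the number of lines on the horizontal axis is shown for the 8 listed factors (blue) and for 5609 listed protein-coding genes (grey). At 3 lines or more the factors stand at 50% and protein-coding genes at 19.3%, and no factor reaches 5 lines.

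The factor genes differ widely in size and in RefSeq transcripts. Mafa has 1 RefSeq transcript and spans 2821 bases on chromosome 15 (GRCm38.p6, the assembly behind mm10), yet it had 4 lines. Glis3, with 6 transcripts over 421415 bases of chromosome 19, is by far the largest of the 10 and had none. Pax6 has 8 transcripts over 29515 bases and had 3 lines, and Nkx2-2 has 7 transcripts over 18950 bases and had 4. Neurod1, absent from the table, spans 4000 bases with 1 transcript, close in size to the listed Foxa2 (4093 bases) and Mnx1 (4648 bases). Pax6, Neurod1, Nkx2-2 and Foxa2 lie on chromosome 2, with 847443 bases between Nkx2-2 and Foxa2, and Mnx1, Nkx6-1 and Pdx1 lie on chromosome 5.

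In RefSeq coordinates of GRCm38.p6, Mafa (ENSMUSG00000047591) is at chr15:75745501-75748321. Nkx2-2 (ENSMUSG00000027434) is at chr2:147176485-147195434, Foxa2 (ENSMUSG00000037025) at chr2:148042877-148046969 and Pax6 (ENSMUSG00000027168) at chr2:105668896-105698410. Nkx6-1 (ENSMUSG00000035187) is at chr5:101659184-101664711, Pdx1 (ENSMUSG00000029644) at chr5:147270097-147275848 and Mnx1 (ENSMUSG00000001566) at chr5:29473823-29478470. Isl1 (ENSMUSG00000042258) is at chr13:116298270-116309688. The absent Neurod1 (ENSMUSG00000034701) is at chr2:79452637-79456636 and the absent Glis3 (ENSMUSG00000052942) at chr19:28258851-28680265. Which exon or UTR of a listed factor a peak lay in is not given.

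The domain names in the gene table sort the listed factors into families. They are given for listed IDs only, so the share of all genes of a family that was listed was not computed. The homeobox domain is named for Pdx1, Nkx2-2, Nkx6-1, Pax6, Isl1 and Mnx1, which were 6 of the 47 listed IDs with that domain. The median homeobox ID had 1 line. Of the 8 homeobox IDs with at least 3 lines, 3 were factors followed here (Nkx2-2, Nkx6-1 and Pax6). The others were Cers5 with 8 lines, Tshz1 and Zfhx2 with 6, Onecut2 with 5 and Adnp2 with 3, and Cers5 encodes a ceramide synthase, not a factor known to bind DNA. Pax6 was the only listed ID with a paired domain. Foxa2 was 1 of 17 listed IDs with a fork head domain, in which Foxj1 had the most lines, 4. Mafa had the most lines of the 4 listed IDs of the Maf family, ahead of Mafk and Maff with 2 each and Maf with 1.

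Noncoding genes that overlap the factor genes were listed as well. Nkx2-2os, transcribed from the opposite strand across 11352 bases of the RefSeq span of Nkx2-2, had 4 lines, as many as Nkx2-2 itself. A further lncRNA gene inside that span and also on the opposite strand, 6430503K07Rik, had 5 lines. In RefSeq coordinates 6430503K07Rik also lies within Nkx2-2os, on the same strand. Plut, whose human counterpart is known to affect transcription of PDX1 in beta cells, overlaps Pdx1 over 1425 bases on the opposite strand and had 1 line, against 2 for Pdx1. Pax6os1 overlaps Pax6 by 1435 bases and D930032P07Rik overlaps Glis3 by 2042 bases, and neither was listed. In all, 3 of 5 overlapping lncRNA genes with a matched Ensembl ID were listed, against 632 of 4756 matched lncRNA genes of the reference (13.3%). As Nkx2-2os and 6430503K07Rik share a locus and a strand, the 3 are not separate loci, and signal of these 2 could not be told apart by strand. The labels do not say that reads were assigned by strand, so signal of Nkx2-2 and of its opposite-strand genes cannot be told apart, and the same holds for Pdx1 and Plut.

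The core of the m6A consensus, GGAC, was looked for on the transcribed strand in the first 50 bases after each RefSeq start, the only stretch of transcript at hand. Start windows were in the RefSeq table (GRCm38.p6) for 9 of the 10 factors, 12 windows in all. The core occurred in 2 of the 12 windows (16.7%), 1 of Mnx1 and 1 of 3 of Foxa2, against 18.9% of 32851 windows of the reference. It also occurred at the start of Plut. The matches are shown because they are the letters the mark is known to sit in, with the core in capitals, 5′ to 3′ on the transcribed (minus) strand. The first and second Mnx1 stretches are chr5:29478448-29478477 and chr5:29478426-29478455, that of Foxa2 is chr2:148045421-148045450 and that of Plut is chr5:147271475-147271504. The first Mnx1 stretch begins before the RefSeq start at base 29478470, so its leading bases, gcggtcc, are not transcript.
Mnx1, first: gcggtccccacgaGGACcgcaaagaggagg
Mnx1, second: agaggaggcgcctGGACgatggtcgctctc
Foxa2: atcaaagaccagtGGACaaagagaaaaaaa
Plut: atccggcgggaagGGACctagggcttgctc

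Whether any of these adenosines carries m6A cannot be read from the files, as no peak position is given for the 4 stretches. In the 250 bases before each start, the 6-base unit of the glucocorticoid receptor motif (AGAACA, or TGTTCT on the other strand) occurred in 1 of the 12 windows (8.33%), that of Isl1, against 16.1% of 32851 windows. The full palindrome, AGAACA and TGTTCT with 3 free bases between them, occurred in 0 of the 12 and in 3 of 32851. The Isl1 stretch, chr13:116309778-116309807 on the minus strand, has the 6-base unit in capitals. It is shown as the only such match among the factors.
Isl1: aatatgataatcAGAACAgctgcgccgcgc

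Other genes of the islet programme were followed by lists. Of 30 other islet and progenitor transcription factors, 8 were listed (26.7%), close to the 25.6% of all protein-coding genes. They were Bhlha15, an exocrine maturation factor, with 8 lines, Tshz1 with 6, Insm1 and Myt1, both of endocrine progenitors, with 2 each, and Foxa1, Hnf4a, Pou3f4 and Hes1 with 1 each. Neurog3, Pax4, Rfx6, Sox9 and Ptf1a were among the 22 absent. Of 34 paralogs of the 10 factors, 7 were listed (20.6%), namely Maff, Mafk and Cdx2 with 2 lines each and Nkx6-2, Nkx6-3, Foxa1 and Maf with 1 each. Foxa1 and Pax4 are among the genes that stand in both lists.

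Direct target genes of the factors were listed for 13 of 22 (59.1%), against 25.6% of all protein-coding genes. Slc30a8, the zinc carrier of insulin granules, had 6 lines. Slc2a2, the glucose carrier, had 3, as did Pcsk2, Chga, Chgb, Kcnj11 and Nnat. Ccnd2 had 2, and Ins1, G6pc2, Pcsk1 and Ttr had 1 each. Ins2, Iapp, Glp1r, Ucn3, Abcc8, Ero1b, Sst, Pcx and Rgs16 were absent. Of mouse orthologs of 14 human genes for maturity onset diabetes of the young, 6 were listed (42.9%), among them Klf11 and Cel with 4 lines each, Kcnj11 with 3, Pdx1 with 2 and Hnf4a with 1. Pdx1 and Neurod1 belong to that list by definition.

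Cofactors and partners were listed for 9 of 28 (32.1%), against 25.6% of all protein-coding genes. Dnmt3a, Stub1 and Gsk3b had 3 lines each. Ldb1 and Ssbp3, which form a complex with Isl1, had 1 each, as did Meis2, Tcf12 and Tle3. Pcif1, with 4 lines, was in the list by a shared name only, as the symbol now stands for the methyltransferase of cap-adjacent adenosines. Without it 8 of 27 were listed (29.6%), close to that 25.6%. Markers of other islet endocrine cells were listed for 3 of 12 (25%), also close to 25.6%. They were Gcg, Ttr and Pou3f4 with 1 line each. Of 22 markers of exocrine, ductal, mesenchymal, endothelial or blood cells, 3 were listed (13.6%), Ctrb1 with 4 lines, Spp1 with 2 and Cd68 with 1.

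**Figure D3:**
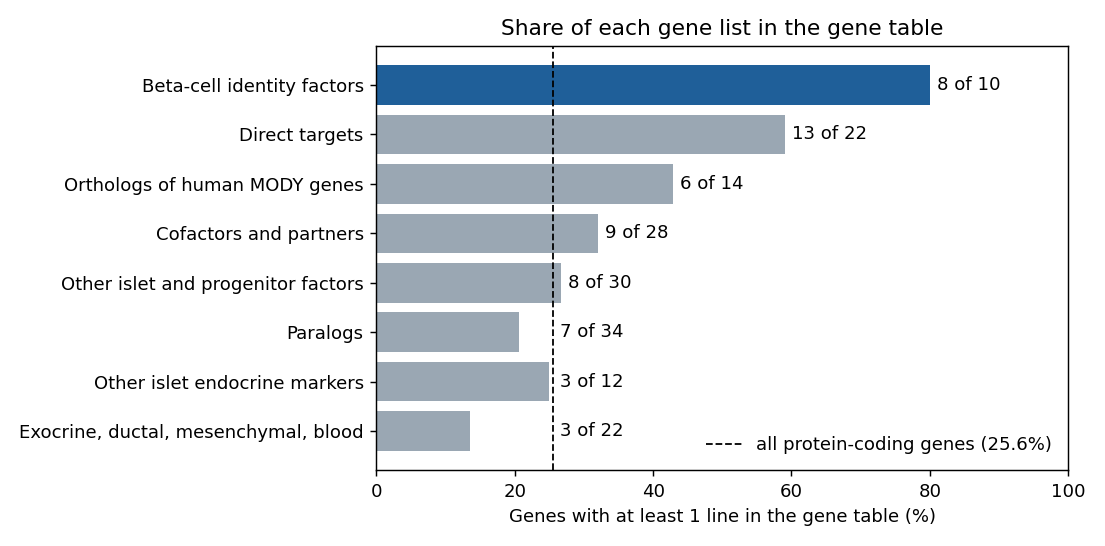
Bars give the share of each gene list with at least 1 line in the gene table (horizontal axis, percent), with the listed and matched genes beside each bar, and the dashed line marks the 25.6% of all protein-coding genes. The 10 factors are at 80% and their direct targets at 59.1%, while other islet factors are at 26.7% and paralogs at 20.6%.

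In the GO table the 8 listed factors stood in 1027 of 16568 rows. In 535 of these a single factor was present, and in 64 all 8 were. The smallest of those 64, sequence-specific DNA binding, had 359 genes with a peak of 1111 in the background (32.3%) in the authors' deposited table. Isl1, with its single line, was in the most rows, 569, followed by Pax6 with 519, Foxa2 with 399, Pdx1 with 352, Nkx6-1 with 317, Nkx2-2 with 239, Mnx1 with 153 and Mafa with 133. Mafa, with as many lines as any factor, was thus in the fewest rows. For a listed factor, the number of rows reflects how many terms it is annotated to and is no measure of its peaks. In the authors' deposited table p was 1 for every GO row, so no row could be ranked by p.

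The row for endocrine pancreas development held 24 genes with a peak of 57 in the background (42.1%) in the authors' deposited table. It named Pdx1, Nkx2-2, Nkx6-1, Pax6, Foxa2 and Mnx1, and did not name the listed Mafa and Isl1. The other 18 genes included Onecut2 with 5 lines, Sox4 and Slc2a2 with 3, and Insm1, Myt1, Bad and Bak1 with 2. Their median was 1 line. The row for glucose homeostasis held 105 of 273 genes (38.5%) in the authors' deposited table and named Pdx1, Pax6 and Foxa2. Its other 102 genes were led by Bhlha15 with 8 lines, Irs2 with 6 and Adra2a and Wfs1 with 5. Both shares stood below the 48.3% that the totals of the authors' deposited table give, 10022 with a peak of 20770 in the background. The lists of that table name 5409 distinct IDs, or 26% of 20770, and both shares stood above this. The total of 10022 also exceeds the 9225 distinct IDs of the gene table. Why the total and the named IDs differ is not stated, so enrichment of the 2 rows cannot be read from their shares.

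The 10 rows with the most factors among those with at most 500 background genes concerned the pancreas, hormone secretion and the fixing of cell fate. Rows were ranked by the number of factors they named, so these themes follow from the choice and annotation of the factors. Over all GO genes the share was 48.3% by the totals of the authors' deposited table and 26% by its named IDs. Enrichment thus cannot be read from the shares of these rows. Pancreas development named 7 of the factors (37 of 89 genes, 41.6%) and endocrine system development the same 7 (44 of 147, 29.9%) in the authors' deposited table, with Mafa missing from each. Peptide hormone secretion (96 of 262, 36.6%) and hormone secretion (120 of 341, 35.2%) named Mafa, Pdx1, Nkx6-1, Pax6, Isl1 and Foxa2 in the authors' deposited table. Neuron fate specification (15 of 37, 40.5%), neuron fate commitment (21 of 77, 27.3%), cell fate specification (22 of 80, 27.5%), cell fate commitment (65 of 256, 25.4%) and regionalization (90 of 337, 26.7%) each named Nkx2-2, Nkx6-1, Pax6, Isl1, Foxa2 and Mnx1 in the authors' deposited table. These factors also act in the spinal cord and brain, where they pattern nerve cells.

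Narrower rows, picked after their values were seen, show which islet functions each listed factor is annotated to. Beside the 48.3% by the totals and 26% by the named IDs of the authors' deposited table, enrichment cannot be read from their shares. Insulin secretion named Mafa, Pdx1, Nkx6-1, Isl1 and Foxa2 (79 of 211 genes, 37.4%) in the authors' deposited table. Response to glucose named Mafa, Pdx1, Nkx2-2 and Foxa2 (92 of 228, 40.4%) in the authors' deposited table. Detection of glucose named Pdx1 and Foxa2, which are 2 of its 3 background genes. All 3 had a peak in the authors' deposited table. Differentiation of the type B pancreatic cell, the beta cell, named Pdx1, Nkx2-2, Nkx6-1 and Pax6 (10 of 27, 37%) in the authors' deposited table. Differentiation of the pancreatic A cell, which makes glucagon, named Nkx2-2 and Pax6 (4 of 8) in the authors' deposited table. Exocrine pancreas development named Pdx1 alone (3 of 8), and spinal cord motor neuron differentiation named Nkx2-2, Nkx6-1, Pax6, Isl1 and Mnx1 (14 of 33, 42.4%), in the authors' deposited table. Nkx2-2 and Pax6 thus stood in rows of both islet cell types, while Mafa stood in none of the differentiation rows named here.

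Factors were input genes of 5 of the 290 pathways of the KEGG table. Maturity onset diabetes of the young held the most, 7, and the authors' deposited table gives it 16 input IDs against 27 background genes (p = 0.000494, adjusted p = 0.00117). The 7 were Pdx1, Mafa, Nkx2-2, Nkx6-1, Pax6, Foxa2 and Mnx1. Other genes counted in the row under their own name included Bhlha15 with 8 lines, Slc2a2 with 3, and Ins1, Hnf4a and Hes1 with 1 each.

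A further 3 input IDs of that row carried no symbol and had been given the Entrez gene of another gene. Nkx2-2os was counted under the Entrez gene of Nkx2-2, so Nkx2-2 entered the row a second time. Gm26755, an unnamed gene model with 2 lines, was counted under that of Neurod1, so Neurod1 is in the row although its own ID is not in the gene table. Gm18981, a pseudogene with 1 line, was counted under Nr5a2. The 16 IDs thus stand for 15 Entrez genes, and 13 of them are genes counted under their own name. Those 13 make 48.1% of the 27 background genes, against 59.3% with all 16 IDs. No share over all KEGG genes was computed to set beside these. In the authors' GO table the totals give 48.3% and the named IDs 26%. Those are shares of GO background genes, not of KEGG genes, so enrichment of this row cannot be read from them.

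The other 4 pathways named 1 or 2 of the factors each. Type II diabetes mellitus named Mafa and Pdx1 (23 input IDs against 50, adjusted p = 0.00131), and insulin secretion named Pdx1 (36 against 86, adjusted p = 0.000251), in the authors' deposited table. The pluripotency pathway named Isl1 and Pax6 (60 against 140, adjusted p = 1.55e-06) and the longevity pathway named Foxa2 (33 against 64, adjusted p = 2.56e-05) in the authors' deposited table. Of all 290 pathways, 194 had in the authors' deposited table an adjusted p below 0.05, so a small p was the usual case. Isl1 and Glis3 were not in the diabetes rows.

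**Figure D4:**
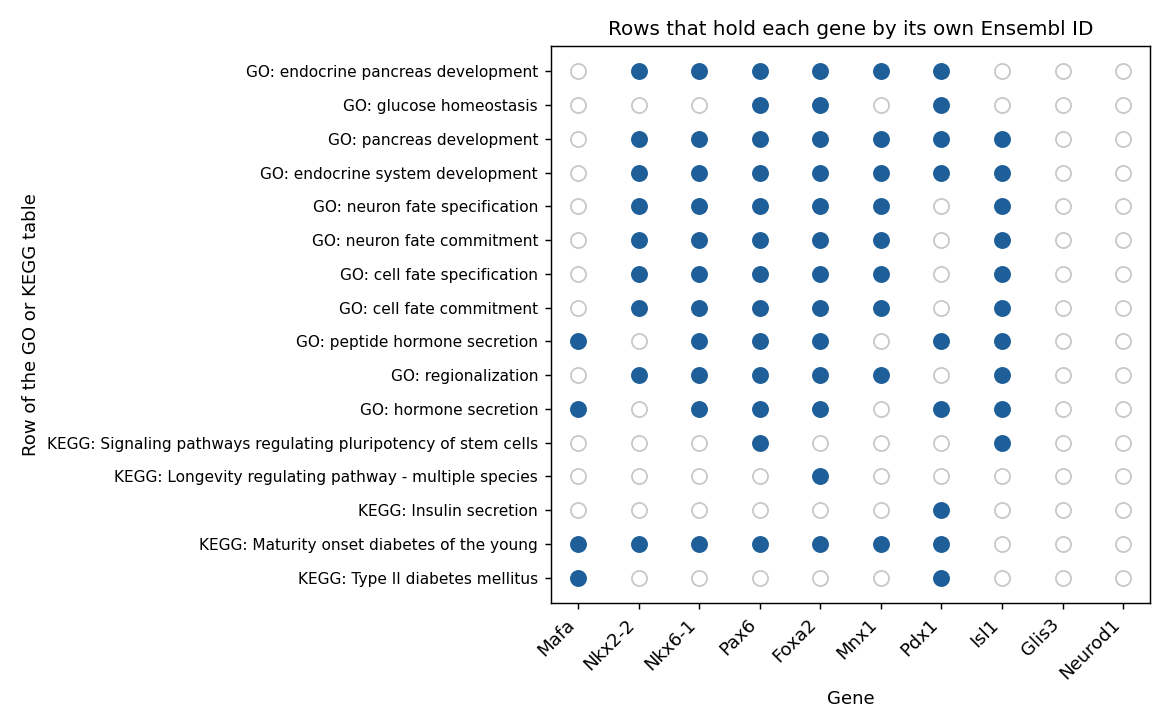
Filled circles mark which of the 10 factors (horizontal axis) each GO or KEGG row (vertical axis) names by its own Ensembl ID, and open circles mark those it does not. Maturity onset diabetes of the young names 7, endocrine pancreas development 6 and glucose homeostasis 3, and Glis3 and Neurod1 have no filled circle.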

How the data were processed

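m6A immunoprecipitation and input libraries of MIN6 cells with GR or control vector (1 of each per arm, 4 in all) were compared by the authors, and the deposited files hold that comparison with no value per library. BWA 0.7.12, HOMER 4.9.1 and the build mm10 are named in the submitters' processing notes. The peak caller, its thresholds and the strand setting are not given in the sources used here. The GO and KEGG tables hold gene counts per row that the authors deposited, and the KEGG p-values come, per the file headers, from a hypergeometric or Fisher exact test with Benjamini-Hochberg adjustment. The gene table was deposited with no header.

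Lines were counted per Ensembl ID. Reference names matched 9217 of 9225 IDs, and older symbols were used only where no other gene bears them. GO lists broken over several lines were joined. Overlaps and gene spans come from RefSeq coordinates of GRCm38.p6, and neighbours were taken within 50 kb. No enrichment was recomputed and no test was made. The parsers were tested on simulated data.

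The factors and gene lists were chosen with earlier results of these data known. By rule, all 10 factors, all listed genes of each list, every KEGG row with a factor and the 10 GO rows with the most factors could be named, and a few list genes are not reported here by name. The narrower GO rows, sequence-specific DNA binding, DNA-binding transcription factor activity, the leading non-member genes of a row, the overlapping genes other than Nkx2-2os and Pax6os1, and the motifs were added after the values were seen. Alternatives changed how factors were matched, what counted as listed, how input genes were counted and which rows and background genes were kept. Calculations used Python 3.11.15, SciPy 1.17.1 and Matplotlib 3.10.9.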

Additional observations from a re-analysis of the deposited data

How the results depend on the processing

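The count of 8 listed factors was 8 when matched by deposited symbol alone and 7 with at least 2 lines required. It was 9 when Neurod1 was added through Gm26755, a setting chosen after seeing the data. The median of 2.5 lines was 2.5 by deposited symbol and 2 with absent factors at 0. The shares of endocrine pancreas development (42.1%) and glucose homeostasis (38.5%) were the same over distinct IDs that stand in the gene table. The maturity onset diabetes row had 15 distinct Entrez genes in place of 16 IDs. The 1027 GO rows with a factor became 538 when only rows of 10 to 500 background genes were kept, by construction. The background share of 25.6% was 27% without olfactory receptor genes, 26.3% over the 21346 protein-coding genes with a matched Ensembl ID (added after seeing the data) and 11.4% with at least 2 lines. No paired analysis was possible because each group has 1 library and no test was made. Depth is unknown, so an absent gene cannot be told from one with too few reads for a peak.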

Other observations

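Neighbours of the factor genes were partly listed. Of 7 protein-coding genes within 50 kb of a factor gene, Elp4 at the end of Pax6 counted in, 3 were listed (42.9%). The share of all protein-coding genes was 25.6%, and 7 genes are too few to set against it. The 3 were Cdx2 and Nom1 with 2 lines each, near Pdx1 and Mnx1, and Zc3h3 with 1 line, near Mafa. The lncRNA gene 9030622O22Rik, which starts 2364 bases from Foxa2 on the same strand, had 2 lines, as many as Foxa2. Gm23747, a small nucleolar RNA gene 11538 bases from Mafa, had 2 lines. Paupar, an lncRNA gene 7553 bases from Pax6, was absent. The glucose homeostasis row also counted 3 microRNA genes with 1 line each, Mirlet7g, Mir103-1 and Mir33.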
